A study of Homo sapiens with 42 samples.

Results

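The genes described here are 45 interferon-stimulated genes, chosen by name from the known antiviral and interferon response. They were followed in 1205Lu, a human melanoma cell line, after treatment with either of 2 Aurora kinase inhibitors. Of the 45 genes, 35 gave a signal above array background and were measured, among 8917 genes measured in all. The other 10 are named near the end. A total of 42 single-colour Illumina bead arrays were analysed. The reference group was 4 control arrays at 0 h. Cells treated with AZD1152 at 0.5 µM, an inhibitor selective for Aurora B that is also known as barasertib, were sampled at 6 h (3 arrays) and at 12, 18, 24 and 48 h (4 arrays each). Cells treated with SNS-314 at 0.05 µM, which inhibits all Aurora kinases, were sampled at the same 5 times with the same numbers of arrays. All groups share 1 cell line, and the labels do not say whether the arrays of a group came from separate cultures, so p-values measure only the spread between these samples. Every treated group was compared with the 0 h control, and untreated cells at later times were not analysed here, so drug and time in culture cannot be told apart. The RNA is bulk RNA, in which fewer cells of a type and less RNA per cell cannot be told apart.

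Interferons are secreted proteins that cells make when they sense viral or misplaced nucleic acid. Type I interferons bind a receptor at the cell surface, and kinases of the JAK family then start a signal that ends in a complex with IRF9, which binds a short promoter element with repeated GAAA letters. The genes switched on in this way include nucleic acid sensors, effectors that block viral entry, translation or RNA stability, and regulators that close the response. Many tumour lines hold part of this set of genes at a low constant level without added interferon.

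Promoter sequences are shown because the GAAA element is the one that the complex with IRF9 binds, though not every member's window held it. Windows from 250 bases before to 50 bases after the gene start were taken from RefSeq (GRCh38.p14), and 38 of the 45 genes had such a window. The letters GAAA followed, after any 2 bases, by GAAA again, read on both strands, occurred in 25 of the 38 (65.8%) against 1195 of 27305 genes of the table (4.38%). Among the measured genes, 19 of 29 with a window held them (65.5%). A match is a description of letters, not a binding site. Capitals mark the GAAA pairs on either strand. Where a gene had several windows, the one with the most pairs is shown, and the MX1 window at chr21:41425989-41426288 held 0. The windows of MX1 at chr21:41420308-41420607 (plus strand), IFIH1 at chr2:162318635-162318934 (minus strand), ISG15 at chr1:1013247-1013546 (plus strand), OAS3 at chr12:112938224-112938523 (plus strand) and IFI6 at chr1:27672143-27672442 (minus strand) belong to genes whose time courses differ below. The window of IRF1 at chr5:132490724-132491023 (minus strand) held no such GAAA pair, but 1 match of the gamma-activated core.
MX1: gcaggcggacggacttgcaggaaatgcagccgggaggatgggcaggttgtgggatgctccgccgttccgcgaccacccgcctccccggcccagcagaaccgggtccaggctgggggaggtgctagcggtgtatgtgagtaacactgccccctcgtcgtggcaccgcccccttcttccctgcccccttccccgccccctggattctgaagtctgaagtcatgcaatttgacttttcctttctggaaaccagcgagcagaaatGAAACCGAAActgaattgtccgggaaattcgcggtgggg
IFIH1: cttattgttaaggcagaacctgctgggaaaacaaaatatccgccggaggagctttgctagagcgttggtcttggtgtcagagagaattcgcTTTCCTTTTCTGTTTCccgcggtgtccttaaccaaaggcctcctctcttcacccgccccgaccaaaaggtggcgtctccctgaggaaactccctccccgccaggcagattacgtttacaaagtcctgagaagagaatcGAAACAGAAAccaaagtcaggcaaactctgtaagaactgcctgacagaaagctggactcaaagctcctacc
ISG15: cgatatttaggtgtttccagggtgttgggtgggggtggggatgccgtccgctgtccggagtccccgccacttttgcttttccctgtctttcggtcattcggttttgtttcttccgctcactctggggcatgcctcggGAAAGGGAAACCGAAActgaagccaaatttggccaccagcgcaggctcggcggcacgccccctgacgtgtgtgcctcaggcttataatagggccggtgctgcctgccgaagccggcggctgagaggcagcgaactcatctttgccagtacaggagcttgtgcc
OAS3: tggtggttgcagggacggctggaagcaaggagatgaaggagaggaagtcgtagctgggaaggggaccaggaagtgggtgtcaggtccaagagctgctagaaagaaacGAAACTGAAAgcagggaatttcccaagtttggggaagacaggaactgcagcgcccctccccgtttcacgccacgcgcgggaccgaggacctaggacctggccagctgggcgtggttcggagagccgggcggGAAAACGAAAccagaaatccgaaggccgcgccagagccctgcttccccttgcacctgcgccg
IFI6: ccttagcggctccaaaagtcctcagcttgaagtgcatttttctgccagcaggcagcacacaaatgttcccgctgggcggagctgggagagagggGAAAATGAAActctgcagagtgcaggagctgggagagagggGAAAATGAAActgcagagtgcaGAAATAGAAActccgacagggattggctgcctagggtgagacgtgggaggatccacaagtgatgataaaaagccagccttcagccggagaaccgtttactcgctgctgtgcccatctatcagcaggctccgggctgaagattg
IRF1: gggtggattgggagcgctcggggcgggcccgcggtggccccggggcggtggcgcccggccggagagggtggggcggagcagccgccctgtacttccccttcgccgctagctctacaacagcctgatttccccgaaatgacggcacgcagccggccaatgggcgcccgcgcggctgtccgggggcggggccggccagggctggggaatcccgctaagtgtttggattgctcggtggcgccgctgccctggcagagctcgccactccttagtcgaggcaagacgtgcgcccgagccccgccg

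On each array between 20.5% and 30.4% of the 47312 probes lay above background, and the number of arrays limits the precision. Replicate arrays of a group correlated at 0.968 to 0.994 across probes. The AZD1152 18 h replicates 1 and 4 and the SNS-314 12 h replicate 4 lay farthest from their groups. Of 11 melanocyte lineage markers, SOX10, S100A1 and CSPG4 were above background, and the pigment cell genes MITF, PMEL, MLANA and TYR were not. Of 12 leukocyte and 4 endothelial markers 0 were above background. Above background were 1 of 4 plasmacytoid dendritic cell markers (TCF4), 1 of 7 fibroblast markers (PDGFRA) and 1 of 4 keratinocyte markers (KRT10).

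Called members were mostly lower early and mostly higher late. From 6 to 24 h, nearly all called members were lower than at 0 h in both inhibitors, led by MX1, a dynamin-like GTPase that blocks incoming viral particles, and IFIH1, a sensor of long double-stranded RNA. At 48 h the balance was the other way, with IFIT1, IFIH1, MX1, IRF9 and PARP9 among the genes that rose under AZD1152. USP18, OAS3 and IFI6 were lower at 48 h in both inhibitors. All values are log2 of the normalised probe intensity, changes are differences of group means on that scale with their standard error, and a gene was called when limma's adjusted p, taken over all 8917 genes, was below 0.05. All comparisons with 0 h use the same 4 control arrays, so those of the 2 inhibitors are not independent of each other.

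At 6 h under AZD1152, 0 of the 35 members were higher and 4 were lower, and the member median was −0.19 against 0 h. The background in that comparison was 1.2% of all genes called higher and 1.49% called lower. Under SNS-314 at 6 h, 0 members were higher and 9 lower, with a median of −0.27 (1.93% of all genes higher and 1.79% lower). At 6 h, 32 of the 35 members had a negative difference under AZD1152 and 33 under SNS-314. Leaving out AZD1152 6 h replicate 3 reduced the 4 calls to 2. Leaving out SNS-314 6 h replicate 1 or 3 reduced the 9 calls to 4 or 5, and leaving out control replicate 3 reduced them to 3. The falls of IFIH1 and MX1 in both inhibitors and of PARP12 under SNS-314 held in every fit without 1 array. At 12 h, 0 members were higher and 5 lower with each inhibitor, with medians of −0.17 for AZD1152 and −0.16 for SNS-314. The share of all genes called lower was then 2.83% and 3.63%, and the share called higher was 1.45% and 1.94%. For the higher counts of 0, limma's unadjusted p was below 0.05 in 0 members at 6 h in both inhibitors and in 1 member at 12 h in each. In either direction it was below 0.05 at 6 h in 13 members under AZD1152 and 17 under SNS-314. Of all genes, 11.6% and 13.6% had such a p at 6 h. At 12 h it was so in 14 members with each, against 16.4% and 19.8% of all genes.

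At 18 h, 0 members were higher and 7 lower under AZD1152 (median −0.22, against 7.98% of all genes higher and 9.72% lower). Under SNS-314 at 18 h, 0 were higher and 10 lower (median −0.21, against 4.08% higher and 5.64% lower). Those 10 calls became 5 without SNS-314 18 h replicate 2, 3 or 4 or control replicate 2 or 3. At 24 h, 0 members were higher and 6 lower under AZD1152 (median −0.15, against 7.56% higher and 9.2% lower). Under SNS-314 at 24 h, 1 was higher and 8 lower (median −0.14, against 9.09% higher and 10.7% lower). Limma's unadjusted p for a higher level was below 0.05 in 0 members at 18 h in both inhibitors and in 0 at 24 h under AZD1152. In either direction it was below 0.05 in 16 members at 18 h with each inhibitor. Of all genes, 32% under AZD1152 and 23% under SNS-314 had such a p at 18 h. At 24 h under AZD1152 it was so in 10 members, against 29% of all genes. The members' shares at 18 and 24 h exceeded the background only for lower calls, and the background itself was several times that at 6 h.

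At 48 h under AZD1152, 14 members were higher and 3 lower than at 0 h, and the member median was 0.19, where 20.7% of all genes were called higher and 21.8% lower. Under SNS-314 at 48 h, 9 were higher and 4 lower, with a median of 0.10 (22.3% of all genes higher and 23% lower). One of the 14 was MX2, which was measured only through its 48 h groups. Without such genes, 13 of 34 members were higher and 3 lower under AZD1152 (against 20% and 22.3% of 8708 genes) and 9 and 4 under SNS-314 (21.5% and 23.5%). The 13 exceed the background share and the 9 lie near it. In fits that each left out 1 array, 11 of the 16 AZD1152 calls and 9 of the 13 SNS-314 calls held throughout. Over all tested genes, the median change at 48 h was −0.002 under AZD1152 and −0.006 under SNS-314. It lay between −0.014 and 0.009 over all comparisons of this report. Quantile normalisation holds this median near 0, so it cannot show whether all genes shifted. The 4 control arrays were split between chip 2 and chip 3, where the chip was inferred from the ending of the column names. Within those chips, member medians against 0 h ran from −0.31 to −0.06 at 6 to 24 h and from 0.08 to 0.24 at 48 h, so the direction was the same on both chips.

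**Figure D1:**
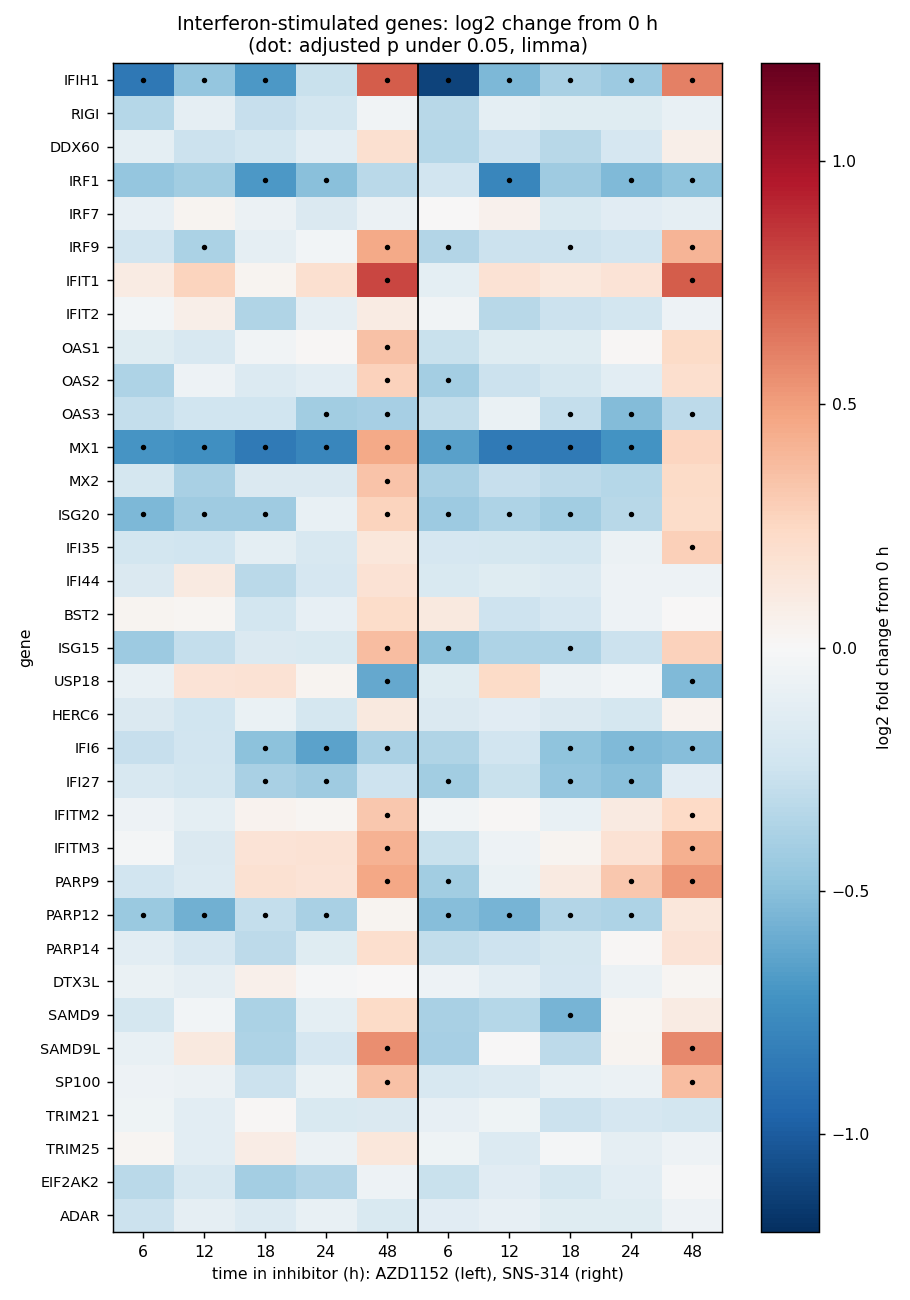
Log2 change from the 0 h control (colour) for the 35 measured interferon-stimulated genes (rows) at each time in AZD1152 and SNS-314 (columns), with a dot where limma called the change. Blue, lower values fill most of the 6 to 24 h columns, and red, higher values fill most of the 48 h columns, where 24 of 35 differences under AZD1152 and 22 under SNS-314 are positive. USP18, OAS3 and IFI6 carry a dot for a lower level at 48 h in both inhibitors.

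**Figure D2:**
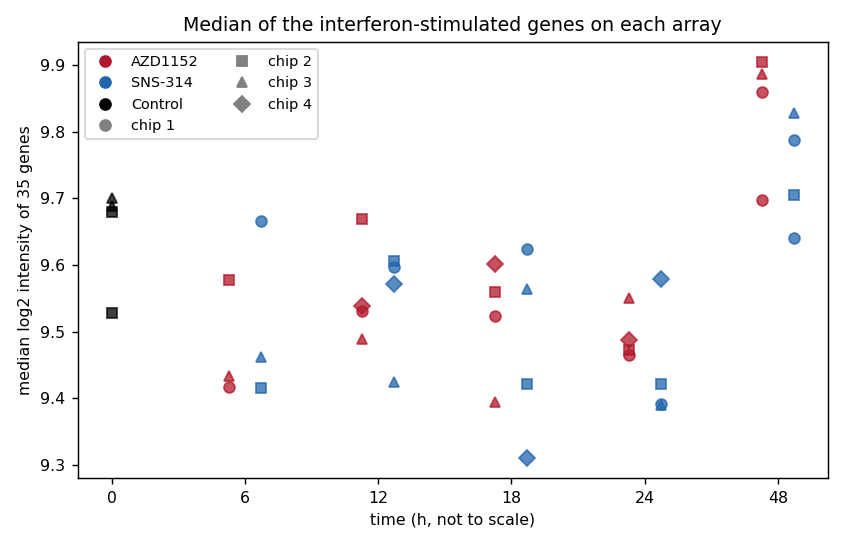
Median log2 intensity of the 35 measured genes on each array (y axis) by hours of treatment (x axis), with colour for the inhibitor and marker shape for the array chip as inferred from the column names. Of the 30 treated arrays at 6 to 24 h, 16 lie below all 4 controls and the other 14 lie above control replicate 1 only, while 7 of the 8 arrays at 48 h lie above all earlier treated ones.

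IFIH1 was the sensor of viral RNA that moved most. It read 9.42, 9.31, 9.34 and 9.05 on the 4 control arrays. Under AZD1152 it read 8.63, 8.27 and 8.36 at 6 h and 10.10, 10.13, 10.10 and 9.70 at 48 h. Under SNS-314 it read 8.29, 7.92 and 8.30 at 6 h and 10.04, 9.84, 9.77 and 9.85 at 48 h. All 6 h arrays lay below all controls and all 48 h arrays lay above them. At 6 h under AZD1152, where replicate 2 was not well above background, it fell by 0.86 ± 0.13 (limma adjusted p = 7.8e-06, n = 3 and 4). Under SNS-314 all 3 arrays at 6 h were not well above background, so IFIH1 was at least 1.69-fold lower there (limma adjusted p = 2.4e-08, measured group difference −1.11). At 12 to 24 h its arrays lay between 8.23 and 9.12 and overlapped the lowest control only under AZD1152 at 12 and 24 h. At 48 h it was higher by 0.73 ± 0.12 under AZD1152 (limma adjusted p = 2.7e-06) and by 0.60 ± 0.12 under SNS-314 (5.9e-05), with n = 4 and 4. The AZD1152 12 h call (−0.46) was lost without AZD1152 12 h replicate 4 (−0.40) or control replicate 1 (−0.42). The SNS-314 18 h call (−0.39) was lost without SNS-314 18 h replicate 2 or 4 or control replicate 1, 2 or 3 (−0.38 to −0.34). RIGI, which senses short triphosphate-ended RNA and is also known as DDX58, and DDX60, a helicase that assists it, were called in none of the 10 comparisons with 0 h.

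Among the transcription factors, IRF9, the DNA-binding subunit of the complex that type I interferon activates, was lower in 3 of the 8 comparisons from 6 to 24 h and higher at 48 h in both inhibitors. It read 10.87, 11.14, 11.15 and 10.94 at 0 h. At 12 h under AZD1152 it read 10.77, 10.62, 10.66 and 10.56, and at 6 h under SNS-314 it read 10.56, 10.73 and 10.72. All 7 of these lay below every control. By 48 h it read 11.35, 11.55, 11.59 and 11.42 under AZD1152 and 11.26, 11.40, 11.48 and 11.58 under SNS-314. All 8 arrays lay above the controls, higher by 0.45 ± 0.08 (limma adjusted p = 2.5e-05) and 0.41 ± 0.08 (0.00011), n = 4 and 4. The fall at 12 h under AZD1152 was −0.38 ± 0.08 (0.004). The SNS-314 calls at 6 h (−0.35) and 18 h (−0.26) depended on the arrays included, although both groups lay below all controls. The former was lost without SNS-314 6 h replicate 1 or control replicate 2 or 3 (−0.31 to −0.30). The latter was lost without SNS-314 18 h replicate 1, 2 or 3 or control replicate 2 or 3 (−0.28 to −0.22).

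IRF1, a factor that binds a similar promoter element, did not rise at 48 h. It read 9.36, 9.39, 9.49 and 9.70 at 0 h. At 12 h under SNS-314 it read 8.99, 8.94, 8.78 and 8.13, the last not well above background, and at 18 h under AZD1152 it read 8.29, 8.91, 8.84 and 9.13. Both groups lay wholly below the controls, by −0.78 ± 0.16 (limma adjusted p = 0.0014) and −0.69 ± 0.16 (0.0021), n = 4 and 4. After 48 h it read 9.45, 8.89, 9.33 and 9.00 under AZD1152 (−0.32, limma adjusted p = 0.11) and 9.30, 8.89, 8.93 and 8.90 under SNS-314 (−0.48, 0.013). The AZD1152 arrays overlapped the controls and the SNS-314 arrays did not. The SNS-314 48 h call was lost without control replicate 4 (−0.41). At 24 h the calls (−0.50 and −0.53) were lost without AZD1152 24 h replicate 2 or 4, or control replicate 3 or 4 (−0.49 to −0.43), and without SNS-314 24 h replicate 1 or 2 or control replicate 4 (−0.48 to −0.45). IRF7, which drives the second wave of interferon, ranged from 9.40 to 9.98 over all arrays and was not called in any comparison with 0 h.

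Among the effectors, the GTPase MX1 was called in 9 of 10 comparisons with 0 h, and all 9 calls held in every fit that left out 1 array. It read 11.89, 11.92, 12.03 and 11.89 at 0 h. At 6 h it read 11.42, 11.17 and 11.08 under AZD1152 and 11.05, 11.44 and 11.36 under SNS-314. At 18 h it read 11.02, 11.08, 11.15 and 11.08 under AZD1152 and 11.13, 11.03, 11.12 and 11.06 under SNS-314. Every treated array from 6 to 24 h lay below every control, between 10.67 and 11.44. MX1 fell by 0.71 ± 0.13 at 6 h under AZD1152 (limma adjusted p = 0.00037, n = 3 and 4) and by 0.65 ± 0.13 under SNS-314 (0.0011). At 18 h the change was −0.85 ± 0.12 with both (1.8e-06 and 3e-06, n = 4 and 4). The 48 h arrays read 12.43, 12.65, 12.43 and 12.02 under AZD1152 and 12.11, 12.14, 12.46 and 12.05 under SNS-314. The AZD1152 change was 0.45 ± 0.12 (limma adjusted p = 0.0025), although replicate 4 lay within the controls' range. The SNS-314 change was 0.26 ± 0.12 and was not called (0.079), although all 4 arrays lay above the controls.

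MX2, the sister GTPase that acts on retroviruses, was not well above background at 0 h or on any array up to 24 h but 1. It passed the background filter only through the 48 h groups, so it had to be higher there and its values are given with no test. It read 8.60, 8.70, 8.67 and 8.59 at 48 h under AZD1152 and 8.27, 8.40, 8.85 and 8.64 under SNS-314. The AZD1152 arrays lay above the control values of 8.09 to 8.43 and the SNS-314 arrays overlapped them.

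**Figure D3:**
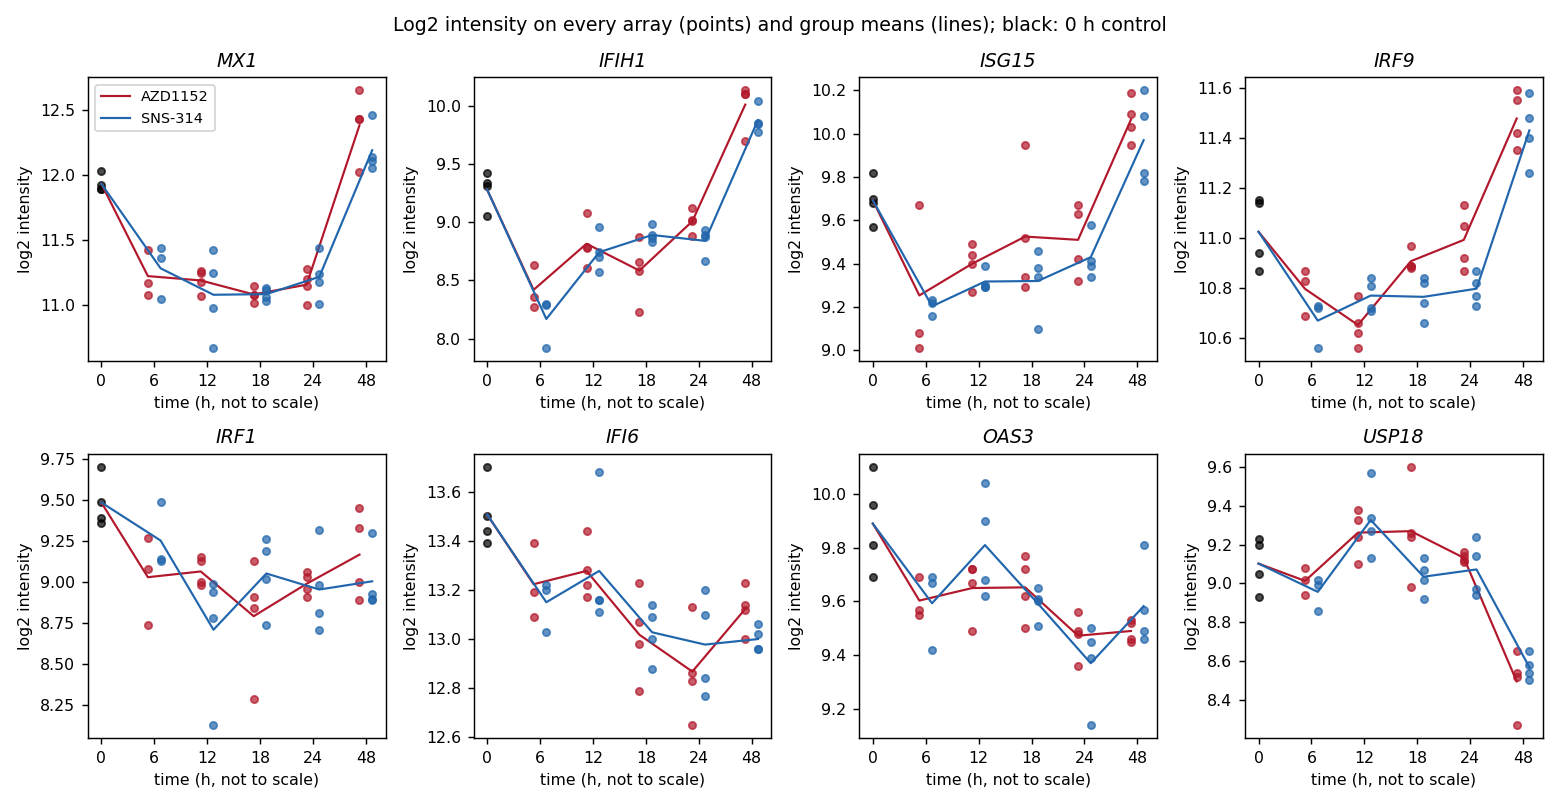
Log2 intensity on every array (y axis) by hours of treatment (x axis) for MX1, IFIH1, ISG15, IRF9, IRF1, IFI6, OAS3 and USP18, with points for arrays and colour for the control and the 2 inhibitors. MX1 and IFIH1 dip from 6 to 24 h and stand high at 48 h, IFI6 and OAS3 stay low at 48 h, and USP18 drops at 48 h alone.

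IFIT1, which binds viral RNA that lacks a normal cap, rose late without an early fall. It read 9.27, 9.08, 9.56 and 9.30 at 0 h, and between 9.07 and 9.72 on all treated arrays up to 24 h. Its 48 h values were 10.06, 10.21, 10.21 and 9.93 under AZD1152 and 10.06, 9.84, 10.41 and 9.85 under SNS-314. The 48 h arrays lay above all controls and all earlier arrays. The changes from 0 h were 0.80 ± 0.12 (limma adjusted p = 9.1e-07) and 0.73 ± 0.12 (3.7e-06), n = 4 and 4. Up to 24 h its differences ran from −0.12 to 0.27 and none was called. IFIT2, a relative, ranged from 8.29 to 9.29 and was called in no comparison with 0 h.

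The OAS enzymes make the short adenylate that activates RNase L, and they did not move together. OAS3 read 10.10, 9.81, 9.69 and 9.96 at 0 h. At 24 h it read 9.48, 9.36, 9.56 and 9.49 under AZD1152 and 9.50, 9.39, 9.14 and 9.45 under SNS-314, and at 48 h it read 9.45, 9.53, 9.46 and 9.52, and 9.49, 9.81, 9.46 and 9.57. All but 1 of these 16 arrays (SNS-314 48 h replicate 2) lay below the controls. OAS3 fell by 0.42 ± 0.10 and 0.52 ± 0.10 at 24 h (limma adjusted p = 0.0018 and 0.00012) and by 0.40 ± 0.10 at 48 h under AZD1152 (0.00096), n = 4 and 4. The fall of 0.31 ± 0.10 under SNS-314 at 48 h (0.0093) was lost without control replicate 1 (−0.24). The SNS-314 18 h call (−0.29) was lost without any 1 of SNS-314 18 h replicates 1 to 4 or control replicates 1, 2 and 4 (−0.32 to −0.22). OAS2 read 10.43, 10.58, 10.41 and 10.32 at 0 h and 10.89, 10.62, 10.70 and 10.64 at 48 h under AZD1152. These groups did not overlap, and the change was 0.28 ± 0.11 (limma adjusted p = 0.03), lost without AZD1152 48 h replicate 1 or control replicate 1, 3 or 4 (0.22 to 0.28). At 6 h under SNS-314 OAS2 was lower by −0.41 ± 0.11 (limma adjusted p = 0.029), a call lost without SNS-314 6 h replicate 1 or 3 or control replicate 1, 2 or 3 (−0.42 to −0.36). OAS1 at 48 h under AZD1152 was higher by 0.35 ± 0.12 (limma adjusted p = 0.02), but replicate 2 read 9.38 and the others 8.73 to 8.80. That call was lost without this replicate (0.20) or without control replicate 2 (0.31).

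ISG20, an exonuclease that degrades single-stranded RNA, read 10.14, 10.17, 10.30 and 10.29 at 0 h. At 18 h it read 9.70, 9.86, 9.72 and 9.92 under AZD1152 and 9.81, 9.76, 9.62 and 10.02 under SNS-314. By 48 h it read 10.63, 10.50, 10.57 and 10.30 under AZD1152 and 10.50, 10.55, 10.34 and 10.41 under SNS-314. The 18 h arrays lay below all controls and the 48 h arrays reached or passed the highest control. ISG20 was called in 8 of the 10 comparisons with 0 h, and 1 of those calls, the fall of 0.43 ± 0.11 at 18 h under AZD1152 (limma adjusted p = 0.0062, n = 4 and 4), held in every fit without 1 array. The calls at 6 h were lost without AZD1152 6 h replicate 3 (−0.44), and without SNS-314 6 h replicate 1 or control replicate 3 or 4 (−0.42 to −0.29). Those at 12 h were lost without AZD1152 12 h replicate 4 or control replicate 3 or 4 (−0.41 to −0.38), and without SNS-314 12 h replicate 1, 3 or 4 or control replicate 2, 3 or 4 (−0.38 to −0.30). Those under SNS-314 at 18 and 24 h were lost without SNS-314 18 h replicate 3 (−0.36), and without SNS-314 24 h replicate 1, 2 or 3 or control replicate 3 or 4 (−0.34 to −0.23). The 48 h call under AZD1152 (0.27) was lost without AZD1152 48 h replicate 1, 2 or 3 or control replicate 1, 2 or 4 (0.23 to 0.29). Of the other effectors, IFI35 was higher at 48 h under SNS-314 by 0.29 ± 0.11 (limma adjusted p = 0.02), a call lost without SNS-314 48 h replicate 3 (0.27) or control replicate 4 (0.26). IFI44 and BST2, the tetherin that holds budding virions at the membrane, were called in no comparison with 0 h.

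In the ISG15 system the conjugated modifier and the enzyme that removes it moved apart at 48 h. ISG15 is a ubiquitin-like protein that is attached to other proteins. It read 9.57, 9.70, 9.82 and 9.68 at 0 h and 10.03, 10.19, 10.09 and 9.95 at 48 h under AZD1152. All 4 treated arrays lay above the controls, by 0.37 ± 0.12 (limma adjusted p = 0.012, n = 4 and 4). Under SNS-314 at 48 h it read 9.78, 10.08, 10.20 and 9.82, which overlapped the controls, and the change of 0.28 ± 0.12 was not called (0.056). At 6 h under SNS-314 it read 9.16, 9.23 and 9.22, below all controls (−0.49). That call was lost without any 1 of SNS-314 6 h replicates 1 to 3 or control replicate 3 (−0.50 to −0.45). The SNS-314 18 h call (−0.37) was lost without SNS-314 18 h replicate 2, 3 or 4 or control replicate 2, 3 or 4 (−0.39 to −0.30).

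USP18 removes ISG15 from proteins and also silences the type I interferon receptor, and it is a regulator that closes the response. It read 9.20, 9.05, 8.93 and 9.23 at 0 h. At 24 h it read 9.12, 9.14, 9.11 and 9.16 under AZD1152 and 9.14, 8.94, 9.24 and 8.97 under SNS-314. After 48 h it read 8.27, 8.54, 8.52 and 8.65 under AZD1152 and 8.58, 8.50, 8.65 and 8.54 under SNS-314. The 24 h arrays overlapped the controls and all 8 arrays at 48 h lay below them. USP18 fell by 0.61 ± 0.10 under AZD1152 (limma adjusted p = 5e-06) and by 0.53 ± 0.10 under SNS-314 (3.6e-05), n = 4 and 4, and was called at no earlier time. In the controls and in each 48 h group, 1 of 4 arrays was not well above background. HERC6, a relative of the human ISG15 ligase HERC5, was called in no comparison with 0 h.

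The small membrane proteins split into a falling and a rising pair. IFI6, which sits in the endoplasmic reticulum and limits flavivirus replication, read 13.44, 13.70, 13.39 and 13.50 at 0 h. At 24 h it read 12.65, 12.86, 12.83 and 13.13 under AZD1152 and 12.77, 12.84, 13.10 and 13.20 under SNS-314. The 48 h arrays read 13.14, 13.23, 13.00 and 13.12 under AZD1152 and 13.02, 12.96, 12.96 and 13.06 under SNS-314. All 16 of these arrays lay below all controls. The falls were 0.64 ± 0.11 and 0.53 ± 0.11 at 24 h (limma adjusted p = 4.7e-05 and 0.00062), and the changes at 48 h were −0.39 ± 0.11 (0.0051) and −0.51 ± 0.11 (0.0003), n = 4 and 4. All 6 IFI6 calls at 18, 24 and 48 h held in every fit without 1 array. The dimmer IFI6 probe differed from 0 h by −0.88 and −0.55 at 6 and 12 h under SNS-314, where the probe used gave −0.36 and −0.23. Under AZD1152 at 6 and 12 h the dimmer probe gave −0.24 and −0.38, and the probe used −0.28 and −0.23. At 18, 24 and 48 h the differences of both probes were negative in both inhibitors.

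IFI27, a mitochondrial relative of IFI6, read 12.33, 12.08, 12.48 and 12.32 at 0 h. At 24 h it read 11.93, 11.97, 11.78 and 11.80 under AZD1152 and 11.82, 12.05, 11.70 and 11.62 under SNS-314. All 8 arrays lay below the controls, by −0.43 ± 0.11 (limma adjusted p = 0.0046) and −0.50 ± 0.11 (0.00092). At 48 h its differences were −0.25 (0.065) and −0.14 (0.31), and neither was called. IFITM3, which blocks fusion of viruses in endosomes, read 13.04, 12.88, 12.96 and 12.83 at 0 h. Its 48 h values were 13.27, 13.37, 13.36 and 13.38 under AZD1152 and 13.02, 13.40, 13.49 and 13.51 under SNS-314. All of these but SNS-314 replicate 1 lay above the controls, and the changes were 0.42 ± 0.11 (limma adjusted p = 0.0024) and 0.43 ± 0.11 (0.0018), n = 4 and 4. Its neighbour IFITM2 was higher at 48 h by 0.32 ± 0.10 under AZD1152 (limma adjusted p = 0.0091), a call lost without control replicate 2 (0.25). The IFITM2 change of 0.24 ± 0.10 under SNS-314 (0.047) was lost without SNS-314 48 h replicate 1, 2 or 3 or control replicate 1 or 2 (0.17 to 0.25). The IFITM genes are near-identical copies, so a probe of one may also read another.

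Of the PARP and SAMD9 genes, PARP12 was lower early and SAMD9L higher late, and the PARP9 probe used gave calls in both directions. PARP12, an antiviral mono-ADP-ribosyltransferase, read 9.46, 9.49, 9.61 and 9.52 at 0 h. At 12 h it read 9.14, 8.99, 8.98 and 8.65 under AZD1152 and 8.92, 9.03, 9.02 and 8.87 under SNS-314. By 48 h it read 9.55, 9.60, 9.45 and 9.63 under AZD1152 and 9.61, 9.73, 9.55 and 9.77 under SNS-314. The 12 h arrays lay below all controls and the 48 h arrays overlapped them. The 12 h changes were −0.58 ± 0.10 (limma adjusted p = 0.00016) and −0.56 ± 0.10 (0.00026), and those at 48 h were 0.03 and 0.14 (0.81 and 0.25), n = 4 and 4. PARP12 was lower in all 8 comparisons from 6 to 24 h, and 4 of those calls held in every fit without 1 array. The AZD1152 6 h call was lost without AZD1152 6 h replicate 2 or 3 (−0.38 and −0.45), and the AZD1152 18 h call without AZD1152 18 h replicate 3 or 4 or control replicate 2, 3 or 4 (−0.31 to −0.25). The SNS-314 18 h call was lost without SNS-314 18 h replicate 4 or control replicate 3 (−0.26 and −0.32), and the SNS-314 24 h call without SNS-314 24 h replicate 4 (−0.29).

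PARP9, which pairs with the ligase DTX3L in interferon signalling, read 10.36, 10.14, 10.42 and 10.36 at 0 h. After 48 h it read 11.01, 10.72, 10.76 and 10.63 under AZD1152 and 10.70, 10.78, 11.13 and 10.75 under SNS-314. All 8 arrays lay above the controls, by 0.46 ± 0.10 (limma adjusted p = 0.00026) and 0.52 ± 0.10 (4.5e-05), n = 4 and 4. It was also lower at 6 h under SNS-314 (−0.42) and higher at 24 h (0.32). The 6 h call was lost without SNS-314 6 h replicate 1 or 3 or control replicate 3 (−0.42 to −0.38), and the 24 h call without SNS-314 24 h replicate 2 (0.27) or control replicate 2 (0.26). With the mean over probes the 6 h call was also lost. The dimmer PARP9 probe differed from 0 h by −0.15 at 6 h and 0.23 at 24 h under SNS-314. At 48 h it differed by 0.42 under AZD1152 and 0.40 under SNS-314. DTX3L itself was called in no comparison with 0 h, nor was PARP14, another mono-ADP-ribosyltransferase, whose differences ran from −0.31 to 0.20. SAMD9, the neighbour of SAMD9L with a related sequence, was lower under SNS-314 at 18 h by −0.56 ± 0.19 (limma adjusted p = 0.049), with overlapping groups. That call was lost without SNS-314 18 h replicate 2, 3 or 4 or control replicate 1, 2 or 3 (−0.59 to −0.47). SAMD9L, which restricts poxviruses and slows cell growth, read 9.04, 9.01, 8.93 and 8.79 at 0 h, the last pair not well above background. The 48 h arrays read 9.29, 9.66, 9.57 and 9.50 under AZD1152 and 9.59, 9.51, 9.50 and 9.49 under SNS-314. All 8 arrays lay above the controls, by 0.56 ± 0.16 (limma adjusted p = 0.0032) and 0.58 ± 0.16 (0.0024), n = 4 and 4.

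Of the TRIM proteins and the other nuclear or translational members, SP100, a nuclear body protein, moved at 48 h. It read 9.95, 9.74, 9.70 and 9.89 at 0 h. Its 48 h values were 10.10, 10.18, 10.18 and 10.23 under AZD1152 and 10.17, 10.28, 10.17 and 10.15 under SNS-314. The groups did not overlap, and the changes were 0.35 ± 0.13 (limma adjusted p = 0.023) and 0.37 ± 0.13 (0.014), n = 4 and 4. That of AZD1152 was no longer called without its 48 h replicate 4 or control replicate 2 or 3 (0.31 to 0.33). The 2 dimmer SP100 probes disagreed, with differences at 48 h of 0.89 and 0.00 under AZD1152 and of 0.79 and 0.02 under SNS-314. TRIM21, an antibody receptor in the cytosol, TRIM25, a ligase that activates RIGI, EIF2AK2, the RNA-activated kinase that stops translation, and ADAR, which edits double-stranded RNA, were called in no comparison with 0 h. In all, 13 of the 35 members were called in none of the 10 comparisons with 0 h, against 39.4% of all genes.

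Levels at 48 h were then compared with those at 6 h within each inhibitor, which does not use the 0 h arrays. Most members that changed rose over this interval, with IFIH1, MX1 and ISG15 among those with the widest rise, and USP18 fell. Under AZD1152, 19 of the 35 members rose and 1 fell, and the member median was 0.34 (21.2% of all genes called higher and 20.8% lower). Under SNS-314, 19 rose and 1 fell, with a median of 0.40 (22.9% higher and 23.2% lower). Without MX2 and other genes measured only through the 48 h groups, 18 of 34 members rose in each inhibitor (20.6% of the genes under AZD1152 and 22.2% under SNS-314), and 14 of the 19 remaining calls in each held in every fit without 1 array. Members that rose in both then numbered 15, against 16.5% of genes, and the gene that fell in both was USP18, where 17.3% of all genes fell in both. Within chips 1, 2 and 3 the member median ran from 0.31 to 0.49 under AZD1152 and from 0.28 to 0.41 under SNS-314.

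Under AZD1152, IFIH1 rose from 6 to 48 h by 1.58 ± 0.13 (limma adjusted p = 1.7e-13, n = 3 and 4). MX1 rose by 1.16 ± 0.13 (limma adjusted p = 1.4e-09), and ISG15 and ISG20 by 0.81 each (2.3e-06 and 5.4e-07). IFIT1, PARP9 and IRF9 rose by 0.70, 0.69 and 0.68 (limma adjusted p = 3e-05, 1.6e-06 and 5.3e-08). SAMD9L and OAS2 followed with 0.65 each (limma adjusted p = 0.0017 and 9.1e-06). For each of these 9 genes all 48 h arrays lay above all 6 h arrays of AZD1152. They were named for the size of this same change, so the separation is a description and not a further test. Under SNS-314, IFIH1 was at least 2.56-fold higher at 48 h than at 6 h, where it was not well above background (limma adjusted p = 1.6e-14). SAMD9L, PARP9 and MX1 rose by 0.97 ± 0.17, 0.94 ± 0.11 and 0.91 ± 0.13 (limma adjusted p = 7.7e-06, 2.2e-09 and 2.9e-07). IFIT1, ISG15, IRF9 and IFITM3 rose by 0.85, 0.77, 0.76 and 0.70 (limma adjusted p = 9.7e-07, 5.2e-06, 4.5e-09 and 7.8e-06). In each of these, named in the same way, the 48 h and 6 h arrays did not overlap. The share of all genes without overlap was not counted. USP18 fell by 0.52 ± 0.11 under AZD1152 (limma adjusted p = 0.00018) and by 0.39 ± 0.11 under SNS-314 (0.0038).

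**Figure D4:**
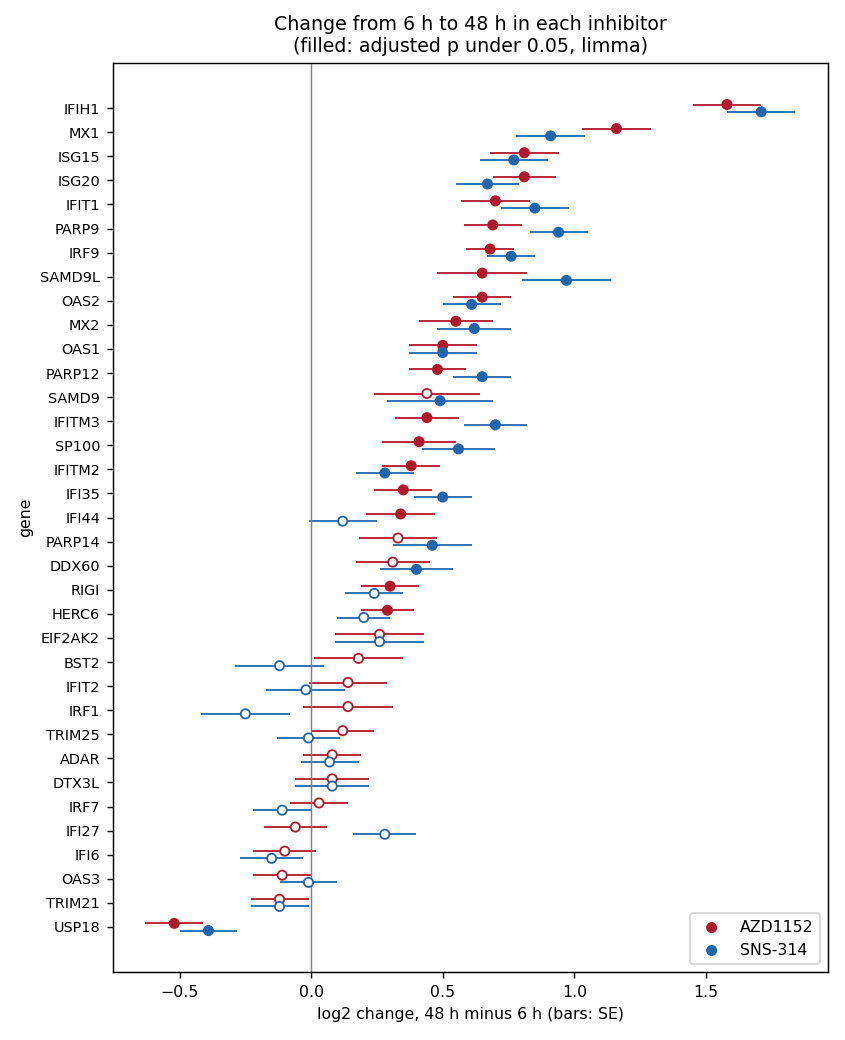
Log2 difference between 48 h and 6 h (x axis) for each measured interferon-stimulated gene (y axis) in AZD1152 and SNS-314, with bars for the standard error and filled points where limma called the difference. IFIH1 and MX1 lie among the rightmost genes in both inhibitors, and USP18 is the filled point to the left of 0.

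A comparison of 48 h with 24 h, added after the time courses had been seen, asked whether the rise came after 24 h. Under AZD1152, 18 members rose and 1 fell between 24 and 48 h, with a median of 0.32 (14% of all genes higher and 13.6% lower). Under SNS-314, 13 rose and 1 fell, with a median of 0.21 (13.2% higher and 13% lower). MX1 rose by 1.23 ± 0.12 and 0.97 ± 0.12 over this day (limma adjusted p = 2e-10 and 5.8e-08), and IFIH1 by 1.00 ± 0.12 and 1.04 ± 0.12 (1.5e-08 and 8.4e-09), n = 4 and 4. For both genes all 48 h arrays lay above all 24 h arrays. Without the genes measured only through the 48 h groups, 17 of 34 members rose under AZD1152 and 12 under SNS-314 (13.3% and 12.4% of genes), and 11 rose in both (9.29%). Of the calls left, 9 of 18 under AZD1152 and 10 of 13 under SNS-314 held in every fit without 1 array. The AZD1152 count again includes IFI44.

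The inhibitors were compared at each of the 5 times, at the doses used, which differ. Adjusted over all 8917 genes, 0 members were called at 6, 12, 18, 24 and 48 h by limma, where the share of all genes called was 0%, 0%, 0.0336%, 0% and 0%. At an unadjusted p below 0.05, 0, 3, 3, 2 and 0 of the 35 members differed, against 3.12%, 6.47%, 11.8%, 3.32% and 3.02% of all genes. The widest member difference at 12 h was that of IFIT2, which read 9.24, 8.88, 9.08 and 9.10 under AZD1152 and 8.95, 8.58, 8.86 and 8.29 under SNS-314. These groups overlapped, and AZD1152 minus SNS-314 was 0.41 ± 0.14 (limma adjusted p = 0.75). At 48 h the difference for MX1 was 0.19, with a 95% interval from −0.05 to 0.44, and for IFIH1 0.13, from −0.11 to 0.37. At 48 h over all members the differences ran from −0.16 to 0.24 and their 95% intervals from −0.37 to 0.53. At 6 h, with 3 arrays a group, the intervals reached from −0.60 to 0.67. Differences of that size remain possible, so the intervals do not show that the inhibitors act alike.

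A wider list of 86 genes of the interferon pathway, none of them among the 45, showed both directions at 48 h. Of the 86, 43 were measured, and of 7 ligands only IFNE, the interferon of epithelia, was above background. Up to 24 h, 0, 0, 4 and 4 of the 43 were higher and 1, 4, 6 and 4 lower at 6, 12, 18 and 24 h under AZD1152, where the shares of all genes are those given above for the same comparisons. Under SNS-314, 0, 0, 1 and 4 were higher and 5, 3, 2 and 2 lower. IFNE, GBP2 and EPSTI1 passed the background filter only through the 48 h groups, so the counts at 48 h are given for the other 40. The lower counts up to 24 h include calls of these genes, which did not pass the filter at those times. At 48 h under AZD1152, 12 of the 40 were higher and 5 lower than at 0 h (median 0.12, against 20% of genes higher and 22.3% lower). Under SNS-314, 10 were higher and 2 lower (median 0.10, against 21.5% and 23.5%). Against 6 h, 15 rose and 3 fell under AZD1152 (median 0.21, against 20.6% and 21.3%) and 20 rose and 2 fell under SNS-314 (median 0.32, against 22.2% and 23.8%). Of the 5 receptors measured, 1 was higher and 1 lower at 48 h under AZD1152, and 0 were higher and 1 lower under SNS-314. None of the 3 measured negative regulators was called in these comparisons. Of 20 further induced genes, 9 were higher and 2 lower at 48 h under AZD1152 and 8 higher and 1 lower under SNS-314, beside the same shares of all genes at 48 h.

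WARS1, a tryptophan-tRNA ligase induced by interferon gamma, read 12.20, 12.30, 12.13 and 12.20 at 0 h. By 48 h it read 13.52, 13.55, 13.49 and 13.50 under AZD1152 and 13.63, 13.70, 13.32 and 13.33 under SNS-314. The groups were far apart, by 1.31 ± 0.10 (limma adjusted p = 6.9e-14) and 1.29 ± 0.10 (8.1e-14), n = 4 and 4. GBP2, a guanylate-binding protein of the same response, read 8.28 to 8.46 on the controls, and 9.14 to 9.52 at 48 h under AZD1152 and 9.21 to 9.47 under SNS-314, given with no test because it was measured only through these groups. At 12 h it was not well above background. TRIM22 and TRIM5, both retroviral restriction factors, were higher at 24 h in both inhibitors. The changes were 0.54 and 0.62 under AZD1152 (limma adjusted p = 0.0028 and 0.00025) and 0.53 and 0.71 under SNS-314 (0.0029 and 3e-05). At 48 h TRIM22 and TRIM5 were higher by 0.84 and 0.67 under AZD1152 (limma adjusted p = 1.5e-06 and 2.3e-05) and by 1.00 and 0.99 under SNS-314 (4.6e-08 and 1.2e-08). TRIM5 was first called at 18 h in both inhibitors, and TRIM22 at 18 h under AZD1152. The TRIM22 call and the SNS-314 TRIM5 call at 18 h were each lost in some fits without 1 array. AIM2, a sensor of cytosolic DNA, was higher at 48 h by 0.57 ± 0.12 and 0.52 ± 0.12 (limma adjusted p = 0.00022 and 0.00061). Under SNS-314 it was already higher at 24 h, by 0.39 ± 0.12 (limma adjusted p = 0.019). That call was lost without SNS-314 24 h replicate 3 (0.34) or control replicate 2 (0.37). PLSCR1, a membrane scramblase that aids the interferon response, fell at 48 h by 0.55 ± 0.12 and 0.58 ± 0.12 (limma adjusted p = 0.00022 and 0.00011), and it was lower at 24 h in both inhibitors (−0.41 and −0.51). PLSCR1 was also called at 18 h in both inhibitors and at 6 h under SNS-314. The SNS-314 calls at 6 and 18 h were lost in some fits without 1 array. For WARS1, TRIM22, TRIM5, AIM2 and PLSCR1 no 48 h array lay within the range of the controls. These genes were named for the size of their change, so the separation is a description and not a further test. The share of all genes with such a separation was not counted.

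IFNGR1, the ligand-binding chain of the interferon gamma receptor, read 10.52, 10.56, 10.24 and 10.52 at 0 h. At 6 h it read 9.91, 9.90 and 9.68 under AZD1152 and 9.93, 9.66 and 9.87 under SNS-314. All 6 arrays lay below the controls, by −0.63 ± 0.13 (limma adjusted p = 0.0015) and −0.64 ± 0.13 (0.001), n = 3 and 4. At 48 h its differences from 0 h were 0.09 and 0.05 and were not called, and from 6 to 48 h it rose by 0.72 ± 0.13 and 0.69 ± 0.13 (limma adjusted p = 1.6e-05 and 2.7e-05). EPSTI1, an epithelial stromal interaction gene, was not well above background in any treated group up to 24 h. Its controls were not above background on 3 or more arrays either. Its differences from 0 h at 12 to 24 h ran from −0.96 to −0.62 and were called lower. Between groups that did not pass the background filter, they cannot be read as measured falls. At 48 h, through which alone it was measured, it read 8.90, 8.86, 8.74 and 8.67 under AZD1152, above the controls of 8.05 to 8.51, and 8.74, 8.59, 8.46 and 8.46 under SNS-314, which overlapped them. SP110, a nuclear body relative of SP100, was called against 0 h only as lower, at 6 and 12 h under SNS-314 (−0.47 and −0.49, limma adjusted p = 0.027 and 0.0086) and at 18 h under AZD1152 (−0.36, 0.031). The 6 h call was lost without any 1 of SNS-314 6 h replicates 1 to 3 or control replicate 3 or 4 (−0.50 to −0.41), the 12 h call without SNS-314 12 h replicate 4 (−0.35) or control replicate 3 (−0.43), and the 18 h call without AZD1152 18 h replicate 1 or control replicate 3 or 4 (−0.34 to −0.30). The 18 h call was also lost in 6 of the alternatives given below, among them the mean over probes. SP110 rose from 6 to 48 h by 0.56 ± 0.13 and 0.41 ± 0.13 (limma adjusted p = 0.00053 and 0.0089). PNPT1, a mitochondrial exoribonuclease, was higher at 48 h under SNS-314 by 0.51 ± 0.17 (limma adjusted p = 0.013). That call was lost without SNS-314 48 h replicate 3 (0.41) and with the mean over probes.

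The remaining 10 members are not part of these counts. IFIT3 had its best probe above background on 17 arrays, but never on 3 arrays of 1 group, and that of IFIT5 on 1 array. OASL, IFI44L, IFITM1, HERC5, RSAD2, CMPK2 and XAF1 were above background on 0 of 42 arrays, so no change of theirs can be stated in either direction. For STAT2 the number of matched probes was 0, and it was not analysed here.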

How the data were processed

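The authors hybridised RNA to Illumina bead arrays. The deposited table of non-normalised values holds 1 probe intensity per array, per the file headers. That table carries a pair of contradicting header lines, and the second was used because the ranks on 42 of 42 of its columns matched the same array in the authors' deposited log2 table (rank correlation at least 0.999977, at most 0.937 with other arrays), against 1 of 42 for the other header. How the authors background-corrected and normalised the deposited log2 values is not given in the sources used here, and those values served as an alternative only. The number of per-sample columns not used was 0.

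Intensities were background-corrected with normexp (offset 50), without control probes, quantile normalised and log2 transformed in limma 3.58.1 (R 4.3.3). Probes above background on 3 or more arrays of the same group numbered 13481 of 47312, and these were tested. An array's background threshold was the mode of its log2 intensities plus the 95th normal percentile of a spread estimated from the values below that mode. Of the probes, 30110 had 1 gene symbol, 8 several and 17194 none, and 30071 symbols were updated through the Entrez identifier. The brightest kept probe stood for each of 8917 genes, of which 1983 had more than 1. One mean per group was estimated by limma from the 42 arrays together, with Benjamini-Hochberg adjustment over all genes within a comparison and a threshold of 0.05. Groups came from the labels. No duplicated arrays were found. The fit was tested on simulated data.

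The members and lists were chosen with earlier results of these data known. Full values are given for the 14 members with the largest mean absolute change over the 10 comparisons with 0 h. Members called between 48 h and 6 h were named by size, up to 8 per comparison, a tie excepted, and pathway genes called against 0 h, up to 10 by mean absolute change. Genes that passed the filter only through the 48 h groups were left out of counts at 48 h in repeats added after the data had been seen. Other members are accounted for by role, and those given on every array outside the 14 were chosen after their values were seen.

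Same-numbered arrays deviated together (every pair above 0.1) for AZD1152 against SNS-314 at 6 h (0.15 to 0.278), 12 h (0.15 to 0.324) and 24 h (0.28 to 0.424), for 48 h against 6 h with AZD1152 (0.12 to 0.206) and SNS-314 (0.103 to 0.25), and for 48 h against 24 h with AZD1152 (0.265 to 0.316), but not for the other comparisons. The labels give numbers only, so this pairing is read from the data. The column names end in a letter and a number, which were taken here to be array position and chip. Same-numbered arrays shared a chip in every pair between inhibitors and between 48 h and 6 h. They did so in 3 of 4 pairs between 48 h and 24 h, and in 1 pair of each comparison with 0 h. Replicate number and chip can therefore hardly be told apart among the treated arrays. Alternatives were 75th percentile scaling, other filters and probe rules, the groups compared alone, blocks for replicate number and chip, values within chips, and leaving out arrays. The comparison of 48 h with 24 h, the block for the inhibitor pairs and leaving out the 3 farthest arrays were chosen after the data had been seen.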

Additional observations from a re-analysis of the deposited data

Results flagged for a closer look

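In 20 of 315 groups of 4 arrays (6.35%), spread over 17 arrays, the highest or lowest array lay farther from the other 3 than Dixon's criterion allows, and chance flags about 1 in 20 groups. In the AZD1152 groups, IFIT1 read 9.72 on 12 h replicate 1 (others 9.52 to 9.54) and 9.31 on 24 h replicate 1 (others 9.53 to 9.57). IFIH1 read 9.70 on 48 h replicate 4 (others 10.10 to 10.13), still above all controls. OAS1 read 9.38 on 48 h replicate 2 (others 8.73 to 8.80), the array on which its 48 h call rests. IRF9 read 10.97 on 18 h replicate 3 (others 10.88 to 10.89). TRIM25 read 9.27 on 12 h replicate 1 (others 8.89 to 8.93) and 8.88 on 24 h replicate 3 (others 9.10 to 9.13). SAMD9 read 10.42 on 12 h replicate 1 (others 10.18 to 10.21), and ADAR read 12.97 on 24 h replicate 4 (others 13.20 to 13.22).

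In the SNS-314 groups, ISG15 read 9.39 on 12 h replicate 1 (others 9.29 to 9.30), and IRF1 read 9.30 on 48 h replicate 1 (others 8.89 to 8.93). IRF7 read 9.60 on 48 h replicate 2 (others 9.64), and IFI6 read 13.68 on 12 h replicate 3 (others 13.11 to 13.16). HERC6 read 8.74 on 24 h replicate 1 (others 8.64). PARP9 read 10.61 on 18 h replicate 3 (others 10.36 to 10.38) and 10.78 on 24 h replicate 2 (others 10.58 to 10.60). PARP12 read 8.89 on 18 h replicate 4 (others 9.23 to 9.30), and SP100 read 10.28 on 48 h replicate 2 (others 10.15 to 10.17). Among the controls, IFI35 read 10.50 on replicate 4 (others 10.62 to 10.63) and IFITM2 read 12.69 on replicate 2 (others 12.93 to 12.96). The cause of these readings was not tested.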

How the results depend on the processing

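Across the 12 alternatives below that refit the model to the same arrays or without the 3 farthest ones, 0 single-gene changes reversed. Of 158 calls of members, 35 were lost with no filter on dim probes and 23 with 75th percentile scaling, and of 66 calls of the named pathway genes 8 and 4, where the all-gene median moved by −0.048 to 0.039. The replicate block removed 0 calls and added 36. The cause was not tested for the values that follow, except that filters change how many genes are tested.

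For members called, 75th percentile scaling gave 5 at 6 h and 4 at 18 h with SNS-314. Without a filter (44 members) these counts were 3 and 4, and the SNS-314 median of 48 h against 6 h was 0.28. With probes above background on every array (21 members), SNS-314 gave 3 at 12 h, a 48 h median of 0.20, and 13 with a median of 0.50 for 48 h against 6 h, while AZD1152 gave 12 for 48 h against 6 h and 11 for 48 h against 24 h. The mean over probes gave 8 for SNS-314 at 12 h. The replicate block gave 7 for AZD1152 at 6 h, where same-numbered treated and control arrays shared a chip in 1 of 3 pairs. It changed no other member count by over 1.5 times. Within chip 2 the AZD1152 medians were −0.10, −0.06 and −0.12 at 6, 12 and 18 h, that of AZD1152 against SNS-314 at 6 h was 0.18, and that of SNS-314 from 6 to 48 h was 0.29. Within chip 1 the SNS-314 median from 6 to 48 h was 0.28 and that of AZD1152 against SNS-314 at 24 h was −0.10. Within chip 3 the AZD1152 median from 6 to 48 h was 0.49. Leaving out 1 array gave 2 to 6 members at 6 h with AZD1152, and 3 to 7 at 6 h and 5 to 8 at 18 h with SNS-314.

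For pathway genes called (of 43), the counts in either direction were 1, 4, 10 and 8 at 6, 12, 18 and 24 h and 14 for 48 h against 24 h with AZD1152, and 5, 3, 3 and 6 at 6 to 24 h with SNS-314. The 75th percentile gave 2 at AZD1152 12 h and 9 for its 48 h against 24 h. No filter (81 genes) gave 2 at SNS-314 6 h, 2 at AZD1152 12 h and 6 at AZD1152 18 h. Probes above background everywhere (33 genes) gave 2 and 5 at AZD1152 12 and 24 h and 3, 1, 1 and 3 at SNS-314 6, 12, 18 and 24 h. At AZD1152 6 h the mean over probes, the replicate block, the chip as a fixed or random block and the fit without the 3 farthest arrays each gave 3, and the groups compared alone gave 2. At SNS-314 6 h the block gave 9 and the fit without the 3 arrays 8. At SNS-314 12 h the mean over probes gave 6, the replicate block 8, and the chip blocks 7 (fixed) and 6 (random). At SNS-314 18 h the groups alone gave 6, the replicate block 5, the chip 7 (fixed) and 5 (random), and the fit without the 3 arrays 6. At AZD1152 18 h the groups alone and the fit without the 3 arrays each gave 3. Leaving out 1 array gave 1 to 2, 2 to 5, 4 to 11 and 5 to 6 at 6, 12, 18 and 24 h and 8 to 14 for 48 h against 24 h with AZD1152, and 1 to 4 and 3 to 5 at 6 and 12 h with SNS-314.

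Bounds are given for IFIH1 where all arrays of a group were not well above background. The dim members MX2, IFI44 and DTX3L have fitted differences, which enter the member medians unless a gene is said to be left out.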
